A study of Mus musculus with 20 samples.

Results

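The BCL2 family sets the threshold for mitochondrial apoptosis, and 10 of its genes were followed in myeloid cells sorted from mouse tumours. The 10 genes were taken by symbol, out of 23090 genes in each deposited table. They comprise 3 anti-apoptotic genes (Mcl1, Bcl2 and Bcl2l1), 2 effectors (Bax and Bak1) and 5 BH3-only genes (Bcl2l11, Pmaip1, Bid, Bbc3 and Bmf). RNA was sequenced from granulocytic and monocytic myeloid-derived suppressor cells (gMDSC and mMDSC), immature myeloid cells that gather in tumours. There were 4 groups of 5 libraries: gMDSC under CBPi-781, gMDSC with vehicle, mMDSC under CBPi-781 and mMDSC with vehicle. CBPi-781 is GNE-781, an inhibitor of the bromodomain of the histone acetyltransferases CBP and EP300, and is called CBPi from here on. All donors were age-matched female SCID.beige mice of 6 to 8 weeks, hosts that lack T and B cells and have impaired natural killer cells. Tumours were grown under the skin from either of 2 lines, CT26, from mouse colon carcinoma, and MDA.MB.231-X1.1, from human breast carcinoma, and the labels do not tie a library to a line. Once tumours reached a mean of 150 to 200 mm3, mice received 25 mg/kg GNE-781 or MCT as vehicle by gavage, BID for 7 days, and the tumours were then digested and sorted. The sort took CD45+CD11b+Ly6C+F4/80- cells, Ly6G+ for gMDSC and Ly6G- for mMDSC. The labels do not say which libraries share an animal, so p-values measure the spread between these libraries, part of which may be technical.

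Anti-apoptotic members of the family bind and restrain the effectors BAX and BAK at the mitochondrial outer membrane. BH3-only proteins occupy the groove of the anti-apoptotic members or engage the effectors directly, after which BAX and BAK form pores, cytochrome c leaves the mitochondrion, and the apoptosome activates caspases. Neutrophils are short-lived cells that depend on MCL1, an unstable protein, and the BH3-only protein BIM, encoded by Bcl2l11, contributes to the death of aged myeloid cells. Transcript levels are one layer of this control, since several of these proteins are also regulated by turnover, phosphorylation or cleavage.

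Total counts per library ran over 12372630 to 26635889, and no pair of libraries within a group agreed within sampling noise. For comparisons of one gene between groups, levels are given as CPM (counts scaled to one library total with TMM factors over all 20 libraries). For comparisons between genes they are given as the authors' RPKM, which divides by the deposited width of each gene. The deposited counts are named as coding counts, and the widths ran over 312 to 1004 bases for the 10 genes. Neutrophil transcripts marked the granulocytic sort: the summed level of 12 neutrophil markers was 16000 to 30700 CPM in gMDSC under CBPi and 15500 to 52400 CPM in gMDSC with vehicle, against 478 to 587 CPM in mMDSC under CBPi and 490 to 695 CPM in mMDSC with vehicle. Ly6g, the positive gate of the granulocytic sort, was low even there, at 0.531 to 2.13 CPM under CBPi and 0.442 to 9.03 CPM with vehicle. Adgre1, which encodes the F4/80 antigen of the negative gate, was present in every library, at 438 to 1530 CPM. The summed level of 10 macrophage markers was as high as 76000 CPM, in vehicle gMDSC library 3. Apoe gave 54500 CPM of that sum, while Adgre1, at 615 CPM, and Mertk, at 6.91 CPM, were lowest there in the group. Libraries 3 and 5 of vehicle gMDSC stood apart. The first had the highest macrophage and neutrophil sums of its group, and the second the lowest neutrophil sum and the lowest Ly6g. Both are in the vehicle group. Results that rest on them are therefore given with and without both, an alternative chosen after seeing the data.

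The promoter windows of the 3 genes with the clearest differences in level, Bcl2l11, Bcl2l1 and Mcl1, are shown together with one window of Bbc3, which holds the same motif as Bcl2l11. Each is the 250 bases before an annotated start, read 5′ to 3′ on the strand of the gene, from RefSeq on GRCm38.p6. Capitals mark the FOXO core motif GTAAACA, or TGTTTAC where it lies on the opposite strand.
Bcl2l11 (chr2:128125788-128126037, + strand): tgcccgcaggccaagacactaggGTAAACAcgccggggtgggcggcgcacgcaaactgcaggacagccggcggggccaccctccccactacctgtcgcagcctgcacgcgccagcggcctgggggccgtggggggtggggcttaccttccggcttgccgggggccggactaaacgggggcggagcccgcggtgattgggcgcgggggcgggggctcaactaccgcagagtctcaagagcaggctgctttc
Bcl2l1 (chr2:152831729-152831978, - strand): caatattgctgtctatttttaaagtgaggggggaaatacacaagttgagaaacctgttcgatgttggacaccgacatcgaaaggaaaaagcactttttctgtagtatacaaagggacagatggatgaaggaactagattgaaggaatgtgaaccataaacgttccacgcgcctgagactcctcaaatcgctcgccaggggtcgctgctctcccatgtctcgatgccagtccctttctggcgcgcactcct
Mcl1 (chr3:95658471-95658720, + strand): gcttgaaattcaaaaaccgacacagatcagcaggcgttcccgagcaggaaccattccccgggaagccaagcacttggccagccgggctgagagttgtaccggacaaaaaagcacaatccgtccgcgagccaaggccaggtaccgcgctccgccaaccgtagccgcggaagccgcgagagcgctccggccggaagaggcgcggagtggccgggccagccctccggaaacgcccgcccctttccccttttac
Bbc3 (chr7:16310011-16310260, + strand): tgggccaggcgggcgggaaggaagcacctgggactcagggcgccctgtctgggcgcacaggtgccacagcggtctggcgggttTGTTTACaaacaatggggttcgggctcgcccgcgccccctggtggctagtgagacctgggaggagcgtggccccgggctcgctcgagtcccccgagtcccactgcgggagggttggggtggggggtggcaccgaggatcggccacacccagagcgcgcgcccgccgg
The table held 16 such windows for 9 of the 10 genes, Pmaip1 being the gene without one. In all 4 motifs were searched on both strands: GTAAACA, the CRE TGACGTCA, the AP-1 site TGANTCA and the E-box CACGTG. The FOXO core lay 227 bases before this Bcl2l11 start and 167 bases before this Bbc3 start, and 3.17% of all 32851 windows of this length hold it. The other Bcl2l11 window, chr2:128127325-128127574, held none of the 4 motifs. CACGTG, a palindrome held by 6.02% of all windows, lay 9 bases before the Bax start and 64 bases before another Bbc3 start. The CRE, held by 1.55% of all windows, and the AP-1 site, held by 6.75%, were in none of the 16. Bcl2l11 spans chr2:128126038-128162547, and its window shown here lies inside the span of the neighbouring gene Acoxl, which gathered 39 counts over all 20 libraries. Bcl2l1 spans chr2:152758732-152833803 and overlaps Cox4i2, which gathered 394 counts over all 20 libraries. Bak1, at 8 to 77 counts per library, overlaps Ggnbp1, which gathered 149 counts over all 20 libraries. These overlaps are of whole gene spans. Whether the counted bases overlap, and how strand was used in counting, is not given in the sources used here. Reads from any shared bases could therefore not be told apart.

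Among the 10 genes Mcl1 had the highest RPKM in all 4 groups. It averaged 1060 ± 118 RPKM in gMDSC under CBPi, 890 ± 95.8 RPKM in gMDSC with vehicle, 423 ± 103 RPKM in mMDSC under CBPi and 391 ± 44.2 RPKM in mMDSC with vehicle (SD, n = 5 each). Its share of the summed RPKM of the 10 genes had a median of 68.4% in gMDSC under CBPi and 69.6% in gMDSC with vehicle, against 47.8% in mMDSC under CBPi and 42.7% in mMDSC with vehicle. In each group the Mcl1 libraries did not overlap those of the next gene. That next gene was Pmaip1, which encodes NOXA, a BH3-only protein selective for MCL1, in gMDSC under CBPi, at 165 ± 26.9 RPKM. It was Bax in the other 3 groups, at 121 ± 30.9 RPKM in gMDSC with vehicle, 233 ± 31.1 RPKM in mMDSC under CBPi and 276 ± 32.2 RPKM in mMDSC with vehicle (SD, n = 5 each). Bax made up a median of 7.23% and 8.84% of the summed RPKM in gMDSC under CBPi and with vehicle, against 24.1% and 31.6% in mMDSC under CBPi and with vehicle.

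By group mean Bcl2l11 held a different place in this order in each group. Its rank was 3 in gMDSC under CBPi, at 114 ± 25.3 RPKM, and 5 in gMDSC with vehicle, at 33.2 ± 5.91 RPKM (SD, n = 5 each). It was 4 in mMDSC under CBPi, at 30.3 ± 4.5 RPKM, and 6 in mMDSC with vehicle, at 20.6 ± 0.731 RPKM (SD, n = 5 each). In gMDSC under CBPi the libraries of Pmaip1, Bcl2l11, Bax and Bcl2l1 overlapped from one to the next, so their order there is not separated by the spread. Bcl2l11 libraries also overlapped those of Bid in both vehicle groups and those of Bcl2l1 in mMDSC under CBPi. Its ranks in those groups are thus not separated from these neighbours either. Bcl2, the founding anti-apoptotic member, had rank 8 in every group, between 2.98 and 7.64 RPKM on average. Bak1, the second effector, averaged 0.529 to 1.61 RPKM, and Bmf, a BH3-only gene linked to the cytoskeleton, averaged 0.364 to 1.24 RPKM. These 2 genes had the lowest levels in all 4 groups, and Bmf had no count in some libraries.

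**Figure D1:**
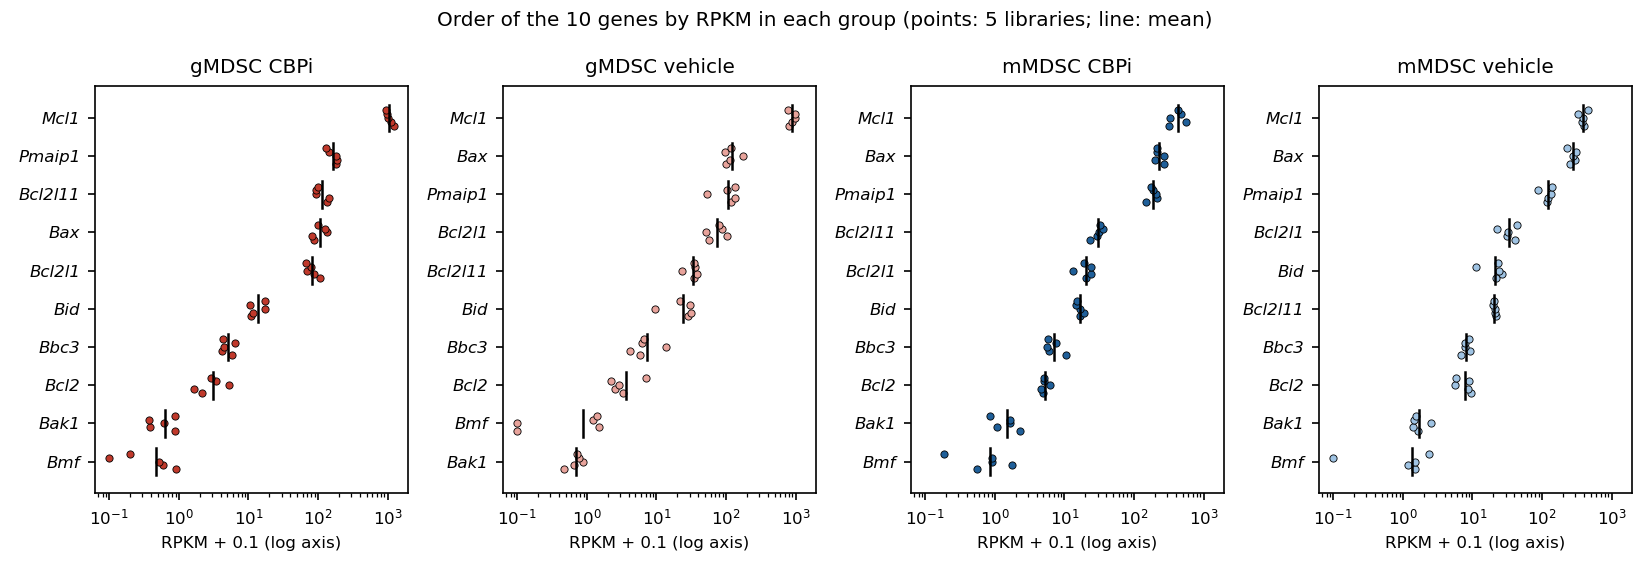
RPKM of the 10 genes in the 5 libraries of each group, on a log axis with 0.1 added, sorted by group mean (black line). Mcl1 leads in every panel, at a mean of 1060, 890, 423 and 391 RPKM from left to right, and Bcl2l11 stands higher in the CBPi panel than in the vehicle panel of the same cell type.

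The first comparison asked what CBP bromodomain inhibition did to these transcripts in gMDSC. Bcl2l11, which encodes the BH3-only protein BIM, rose 3.49-fold, and none of the other 9 genes passed the test in either direction. Bcl2l11 measured 286, 276, 142, 151 and 162 CPM in gMDSC CBPi libraries 6 to 10, against 67.4, 57.8, 52.8, 64.4 and 52 CPM in gMDSC vehicle libraries 1 to 5. The lowest CBPi library lay above the highest vehicle library, and libraries 6 and 7 were the highest of the CBPi group. The means were 203 ± 71.4 CPM under CBPi and 58.9 ± 6.86 CPM with vehicle (SD, n = 5 each). The log2 fold change was 1.80 ± 0.22 (SE; 95% interval 1.32 to 2.29), with an adjusted p of 0.000418 (edgeR, quasi-likelihood F test, adjusted over 11694 genes after Benjamini and Hochberg). Across these genes 4.18% rose and 5.52% fell (9.71% in all), and 12.1% had groups that did not overlap, so 1 gene of 10 is close to the background share. At an unadjusted p under 0.05, 2 of the 10 members were higher and 1 lower, beside 25.9% of all genes. All 10 genes passed the filter on low counts in this and the other comparisons. The rise held whichever library was left out, with a log2 fold change of 1.65 to 1.91 and an adjusted p of 0.000637 to 0.00192. It was 1.71 (adjusted p = 0.00378) without vehicle libraries 3 and 5. In bulk samples, fewer cells of a type and less RNA per cell cannot be told apart, here and in the results that follow.

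Marker levels moved alongside. The macrophage sum was 16100 to 31900 CPM in gMDSC under CBPi and 33300 to 76000 CPM in gMDSC with vehicle, without overlap, and 3 of the 10 macrophage markers tested fell and none rose. Apoe gave 9430 to 19100 CPM of it under CBPi and 20200 to 54500 CPM with vehicle. Of the 12 neutrophil markers 1 fell, Cxcr2, with a list median log2 fold change of -0.52. The neutrophil sums overlapped, at 16000 to 30700 CPM under CBPi and 15500 to 52400 CPM with vehicle. Of 6 sort gate genes 2 fell, Ly6c2 among them, and none rose. Ly6g gave -2.37 ± 0.70 (adjusted p = 0.0502, edgeR). Of 10 monocyte markers 2 rose and 4 fell, with sums of 2030 to 2730 CPM under CBPi and 2090 to 4210 CPM with vehicle. Those that rose were F13a1, 10.3-fold to a mean of 29.8 CPM, and Vcan, 11.4-fold to a mean of 15.3 CPM, both without overlap. Those that fell were Ly6c2, Ccr2, Cx3cr1 and Treml4. Of 5 dendritic cell markers tested 1 rose and 1 fell, with sums of 20.9 to 40.5 CPM under CBPi and 15.6 to 33.7 CPM with vehicle. The sum of 8 lymphocyte and natural killer markers was 2.94 to 8.82 CPM under CBPi and 15.9 to 53.8 CPM with vehicle, and 2 of the 4 markers tested fell. Cd3d gave 10.4 to 42.6 CPM of it with vehicle, where Cd3e was at most 0.294 CPM. The sum of 6 mast cell, basophil and eosinophil markers was 15.4 to 21.9 CPM under CBPi and 53.1 to 84.9 CPM with vehicle. Siglecf made up nearly all of it, at 15.4 to 21.8 CPM under CBPi and 53.1 to 84.8 CPM with vehicle. Ms4a2, Fcer1a and Prg2 were at 0 in all 10 of these libraries. The sum of 5 epithelial markers was 6.27 to 11.6 CPM under CBPi and 23.9 to 54.2 CPM with vehicle, and 2 of the 4 tested fell. Krt18 gave 0.455 to 4.06 CPM of it under CBPi and 17.8 to 47.4 CPM with vehicle. Cdh1 was 3.74 to 8.36 CPM under CBPi and 1.77 to 6.33 CPM with vehicle, and Epcam was at most 2.75 CPM. The part of these levels in the Bcl2l11 result was not tested.

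The other BH3-only genes gave smaller differences in gMDSC. Pmaip1 measured 136, 127, 101, 82 and 73.5 CPM in CBPi libraries 6 to 10, against 82.4, 71.6, 43.6, 66 and 72.4 CPM in vehicle libraries 1 to 5, so the groups overlapped only through the highest vehicle library. Its log2 fold change was 0.64 ± 0.21, with an adjusted p of 0.0766 by edgeR. It passed in DESeq2 (adjusted p = 0.0313) and in the fit of all 20 libraries (0.0276). Bid, whose protein is cut by caspase 8 to link death receptors to mitochondria, averaged 15.4 ± 2.87 CPM under CBPi and 28.4 ± 9.82 CPM with vehicle (SD, n = 5 each), a log2 fold change of -0.86 ± 0.27 (adjusted p = 0.0651). Its vehicle values were 37.1, 31.7, 14.6, 36.6 and 22 CPM, the lowest being library 3. Without that library Bid passed the test (adjusted p = 0.00948), and without vehicle libraries 3 and 5 it gave -1.16 (adjusted p = 0.00636). Bid also passed in DESeq2 (adjusted p = 0.0218) and in the fit of all 20 libraries (adjusted p = 0.0118). Bbc3, which encodes the p53 target PUMA, gave -0.67 ± 0.42 and Bmf -0.86 ± 1.19, with adjusted p of 0.336 and 0.694.

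The anti-apoptotic genes and effectors did not pass the test in gMDSC. Mcl1 measured 2950, 2460, 1820, 1790 and 1730 CPM in CBPi libraries 6 to 10, against 1790, 1570, 2600, 1990 and 1380 CPM in vehicle libraries 1 to 5, with a log2 fold change of 0.22 (95% interval -0.23 to 0.68, adjusted p = 0.547). Bcl2l1, which encodes BCL-XL, gave 0.16 (95% interval -0.32 to 0.64, adjusted p = 0.689), and Bcl2 gave -0.29 (-1.20 to 0.62, adjusted p = 0.709). Bax gave -0.28 (-0.79 to 0.23, adjusted p = 0.491) and Bak1 -0.23 (-1.48 to 1.02, adjusted p = 0.84). These intervals still allow a change of more than 1.5-fold for each of the 5 genes. Libraries 6 and 7 had the highest Mcl1, Bcl2l1, Bcl2l11 and Pmaip1 of the CBPi group and also its lowest TMM factors, 0.74 and 0.827, against 0.947 to 0.963 in libraries 8 to 10.

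**Figure D2:**
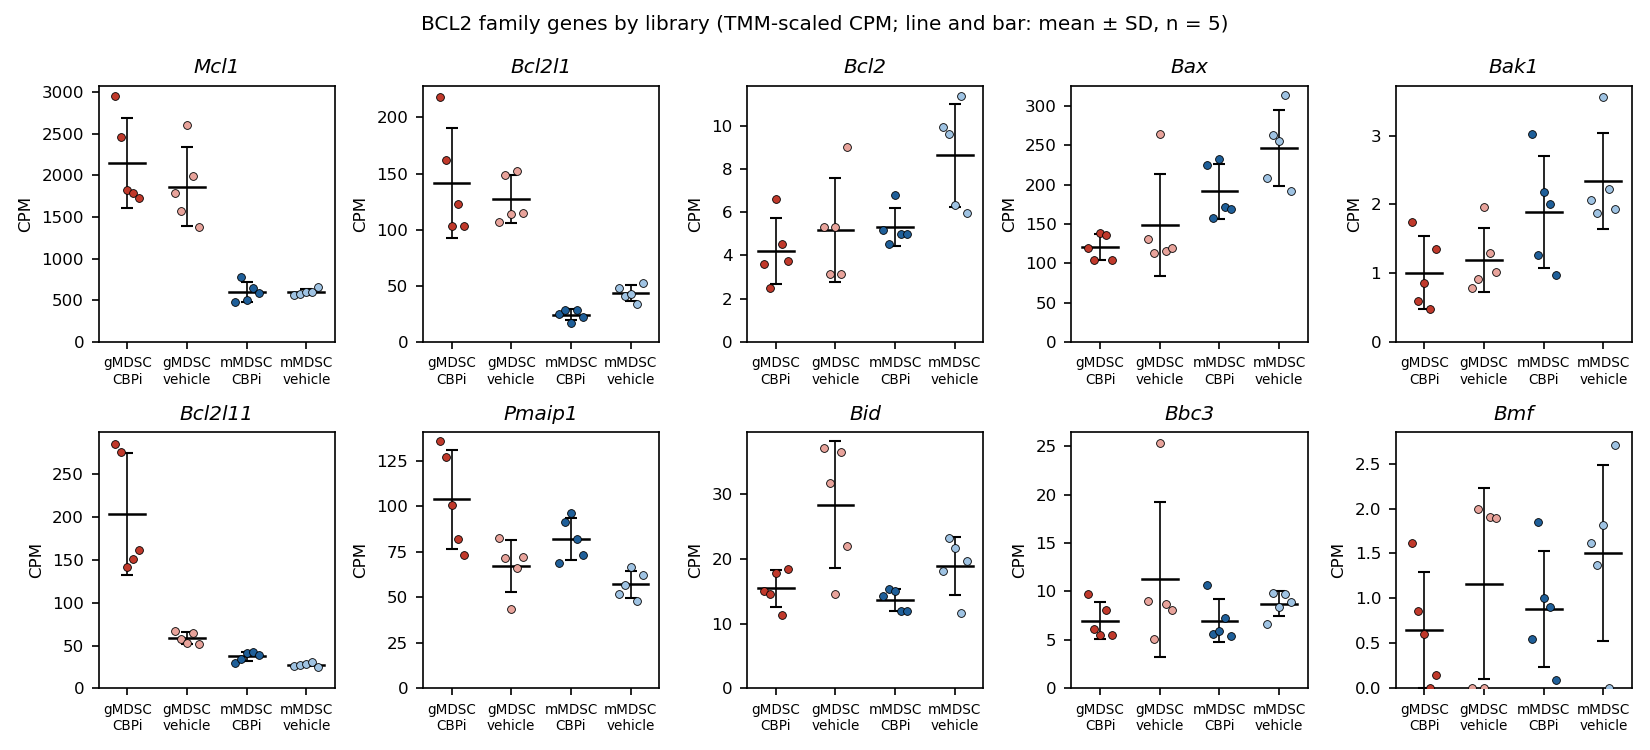
TMM-scaled CPM of the 10 genes in each library (points), with the group mean (line) and SD (bar), n = 5. For Bcl2l11 the 5 gMDSC CBPi libraries, at 142 to 286 CPM, sit above every other library, and for Bcl2l1 the 5 mMDSC CBPi libraries, at 16.9 to 28.3 CPM, sit below every other library.

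In mMDSC the same treatment moved other members past the threshold: Bcl2l1 fell and Pmaip1 rose. Bcl2l1 measured 25.1, 28.1, 16.9, 28.3 and 21.8 CPM in mMDSC CBPi libraries 6 to 10, against 48.4, 40.5, 42.2, 33.8 and 52.3 CPM in mMDSC vehicle libraries 1 to 5. The groups did not overlap, and the means were 24 ± 4.79 CPM under CBPi and 43.4 ± 7.2 CPM with vehicle (SD, n = 5 each). The log2 fold change was -0.87 ± 0.18 (95% interval -1.25 to -0.49, adjusted p = 0.00822), and the adjusted p ranged over 0.00499 to 0.0267 as each library was left out. Pmaip1 measured 68.8, 91.4, 96.1, 81.9 and 73.2 CPM in mMDSC CBPi libraries 6 to 10, against 51.7, 57, 66.5, 48.1 and 62.5 CPM in mMDSC vehicle libraries 1 to 5, again without overlap. Its log2 fold change was 0.51 ± 0.13 (adjusted p = 0.0342). That call ended when any one of CBPi libraries 7, 8 and 9 or vehicle libraries 1, 2 and 4 was left out, with an adjusted p of up to 0.0812, and in the fit of all 20 libraries (adjusted p = 0.122). Of the 11912 genes tested, 3.02% rose and 5.54% fell (8.56% in all), and 9.8% had groups that did not overlap, beside 1, 1 and 2 of the 10 members. At an unadjusted p under 0.05, 2 members were higher and 4 lower, beside 22.4% of all genes.

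The remaining 8 genes did not pass in mMDSC. Bcl2l11 measured 30.1, 34.5, 41.1, 42.9 and 38.5 CPM in CBPi libraries 6 to 10, against 26.5, 27.7, 28.3, 30.4 and 25.4 CPM in vehicle libraries 1 to 5. The groups overlapped through CBPi library 6, and the log2 fold change was 0.42 ± 0.13 (adjusted p = 0.0736). It passed without CBPi library 6 (adjusted p = 0.0398) and in DESeq2 (adjusted p = 0.0182). Bcl2 averaged 5.31 ± 0.867 CPM under CBPi and 8.64 ± 2.38 CPM with vehicle (SD, n = 5 each), a log2 fold change of -0.72 ± 0.24 (adjusted p = 0.0925) that passed in DESeq2 (adjusted p = 0.0325). Bid gave -0.48 ± 0.19 (adjusted p = 0.147) and passed without vehicle library 4 (adjusted p = 0.0251). Mcl1 averaged 596 ± 122 CPM under CBPi and 598 ± 37.8 CPM with vehicle (SD, n = 5 each), with a log2 fold change of -0.02 and a 95% interval of -0.31 to 0.27. Bax gave -0.39 ± 0.16, Bak1 -0.32 ± 0.41, Bbc3 -0.34 ± 0.24 and Bmf -0.79 ± 0.88, with adjusted p of 0.161, 0.702, 0.442 and 0.656. Beside these values, the macrophage sum was 19200 to 24000 CPM in mMDSC under CBPi and 22400 to 32300 CPM with vehicle, with 1 of 10 markers higher and 4 lower. The monocyte sum was 4430 to 5810 CPM under CBPi and 6030 to 7240 CPM with vehicle, with 4 of 10 markers lower and none higher. The sum of 7 erythroid and platelet markers was 82.2 to 262 CPM under CBPi and 25 to 52.2 CPM with vehicle, without overlap, and 1 of 3 tested rose, Pf4, by 3.59-fold. Pf4 made up most of this sum, at 80.1 to 260 CPM under CBPi and 24.3 to 49.4 CPM with vehicle. Of 11 neutrophil markers tested 2 rose, Mmp9 by 4.83-fold and Il1r2 by 1.72-fold, and Mmp8 fell, with sums of 478 to 587 CPM under CBPi and 490 to 695 CPM with vehicle. Of 5 sort gate genes tested 4 fell, Ptprc, Ly6c1, Ly6c2 and Adgre1. In the dendritic cell, lymphocyte and natural killer cell, and epithelial lists 1 marker each fell, of 6, 3 and 4 tested. The part of these levels in the Bcl2l1 and Pmaip1 results was not tested.

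The 2 responses share no library, and their difference was tested in a fit of all 20 libraries. Bcl2l11 passed that test: its log2 response was larger in gMDSC than in mMDSC by 1.34 ± 0.26 (95% interval 0.80 to 1.88, adjusted p = 0.0175, edgeR). Of 12688 genes, 0.497% had a higher and 0.229% a lower response in gMDSC at this threshold, 0.725% in all, beside 1 and 0 of the 10 members. At an unadjusted p under 0.05 the counts were 2 and 0, beside 11.5% of all genes, and DESeq2 called 2 and 0. The adjusted p for Bcl2l11 ran over 0.0087 to 0.0432 as each of the 20 libraries was left out, and the difference was 1.24 (adjusted p = 0.0461) without vehicle gMDSC libraries 3 and 5. With a term for library number in the fit (replicate block) the difference did not pass (adjusted p = 0.0941, edgeR). Bcl2l1 differed by 1.00 ± 0.29 in its log2 response, with an adjusted p of 0.124, and passed in DESeq2 (adjusted p = 0.0419). For Pmaip1 the difference was 0.09 (95% interval -0.45 to 0.63), so the test in mMDSC and the missed threshold in gMDSC do not separate the cell types for this gene. The other 7 genes had differences of -0.43 to 0.38 and did not pass.

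**Figure D3:**
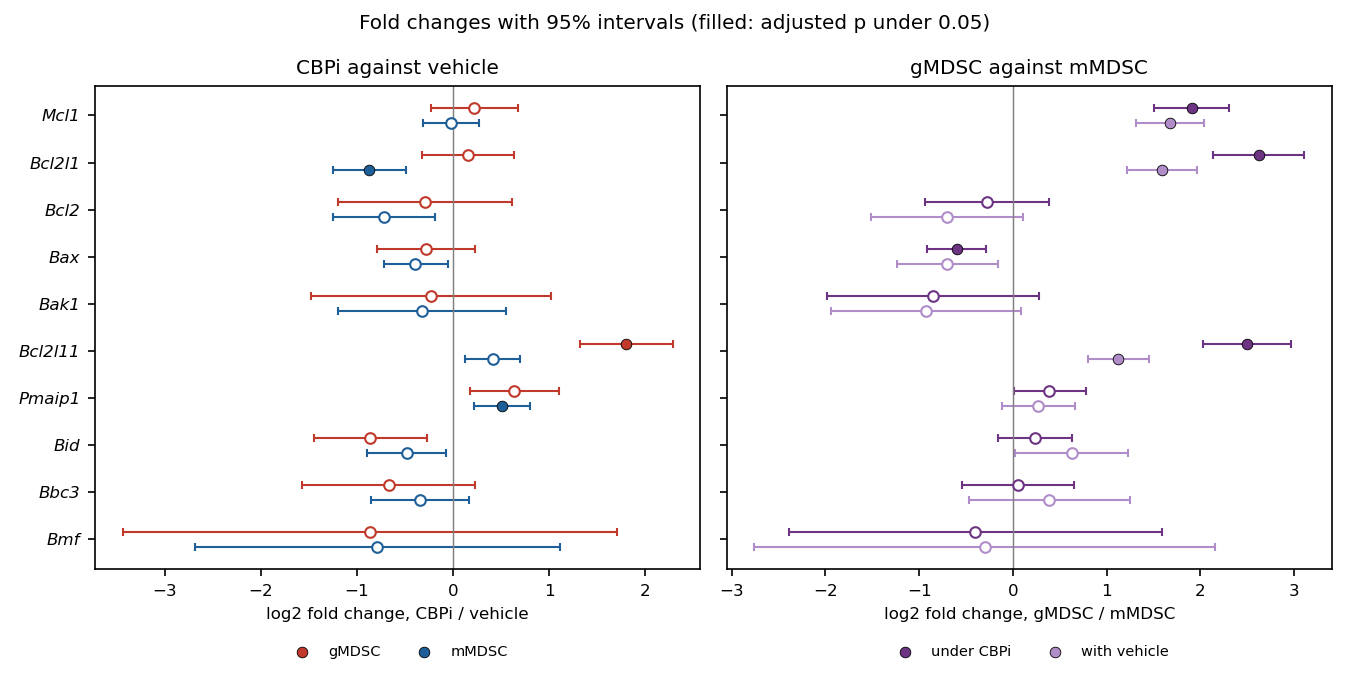
Log2 fold changes of the 10 genes with 95% intervals; filled points have an adjusted p under 0.05. Left, CBPi over vehicle in gMDSC (red) and mMDSC (blue): Bcl2l11 stands at 1.80 in gMDSC and 0.42 in mMDSC. Right, gMDSC over mMDSC under CBPi (dark) and with vehicle (light): Mcl1, Bcl2l1 and Bcl2l11 lie to the right under both conditions, and Bax is filled under CBPi at -0.60.

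The cell types were then compared within each treatment. With vehicle, Mcl1, Bcl2l1 and Bcl2l11 were higher in gMDSC than in mMDSC, each without overlap between libraries. Mcl1 measured 1790, 1570, 2600, 1990 and 1380 CPM in gMDSC vehicle libraries 1 to 5, against 561, 575, 599, 595 and 660 CPM in mMDSC vehicle libraries 1 to 5. Its log2 fold change was 1.68 ± 0.17 (3.2-fold, adjusted p = 1.56e-05). Bcl2l1 measured 107, 149, 114, 152 and 115 CPM in gMDSC vehicle libraries, a log2 difference of 1.59 ± 0.17 (adjusted p = 2.38e-05) from the mMDSC vehicle values given above. Bcl2l11 gave 1.12 ± 0.15 (adjusted p = 0.000145). The calls held in every leave-one-out fit and without vehicle gMDSC libraries 3 and 5, where the log2 fold changes were 1.61, 1.68 and 1.23. Of 11576 genes, 13.6% passed as higher and 8.08% as lower in gMDSC (21.7% in all), and 20.2% had groups without overlap, beside 3, 0 and 3 of the 10 members. At an unadjusted p under 0.05, 4 members were higher and 1 lower, beside 32.7% of all genes, and DESeq2 and limma-voom each called 1 lower, Bax.

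Under CBPi the same 3 genes were higher in gMDSC, and Bax was lower. Mcl1 gave a log2 fold change of 1.91 ± 0.18 (adjusted p = 4.24e-06), Bcl2l1 2.62 ± 0.23 (adjusted p = 1.68e-06) and Bcl2l11 2.50 ± 0.22 (adjusted p = 1.85e-06). Bax measured 120, 104, 139, 136 and 104 CPM in gMDSC CBPi libraries 6 to 10, against 225, 158, 233, 172 and 169 CPM in mMDSC CBPi libraries 6 to 10, a log2 fold change of -0.60 ± 0.15 (adjusted p = 0.00574). Of 11895 genes, 20.1% passed as higher and 19.1% as lower (39.2% in all), and 30.2% had groups without overlap, beside 3, 1 and 4 of the 10 members. At an unadjusted p under 0.05, 4 members were higher and 1 lower, beside 47.2% of all genes. With vehicle Bax gave -0.70 ± 0.25, with an adjusted p of 0.0663. One library decided that call: gMDSC vehicle library 3 held 264 CPM, against 113 to 131 CPM in the other 4, and without it Bax passed (adjusted p = 0.000522). Bid also passed with vehicle when that library was left out (adjusted p = 0.027, against 0.141 with it), and without libraries 3 and 5 Bcl2 passed as lower in gMDSC (log2 fold change -1.13, adjusted p = 0.0429). Pmaip1 under CBPi gave 0.39 ± 0.18 (adjusted p = 0.0961) and passed without gMDSC CBPi library 10 (adjusted p = 0.0405). Marker levels also differed between these populations. With vehicle, 10 of the 11 neutrophil markers tested were higher in gMDSC and none lower, 2 of the 10 monocyte markers were higher and 7 lower, and 5 of the 10 macrophage markers were higher and 1 lower. Under CBPi, 12 of 12 neutrophil markers were higher in gMDSC, 2 of 10 monocyte markers were higher and 7 lower, and 3 of 10 macrophage markers were higher and 1 lower. Of 6 mast cell, basophil and eosinophil markers only 1 was tested with vehicle, Siglecf. It averaged 68.1 ± 13.8 CPM in gMDSC with vehicle and 1.47 ± 1.37 CPM in mMDSC with vehicle (SD, n = 5 each). Prg2, of the same list, was at 0 in gMDSC with vehicle and at 0 to 1.28 CPM in mMDSC with vehicle. The cell mixture cannot be told apart from the sort. TMM factors were 0.74 to 0.972 in gMDSC and 1.022 to 1.209 in mMDSC, so ratios of gMDSC to mMDSC are lower in RPKM than in CPM: vehicle Mcl1 was 890 RPKM in gMDSC and 391 RPKM in mMDSC. The mean of Pmaip1 with vehicle lay higher in gMDSC as CPM, at 67.2 against 57.2 CPM in mMDSC, and lower as RPKM, at 108 against 121 RPKM in mMDSC, while the direction of the 4 called genes was the same on both scales.

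Ratios within a library set a BH3-only gene against its anti-apoptotic partners without a factor between libraries. They restate the levels above and were not tested. Bcl2l11 was 8.92 to 12.9% of Mcl1 by RPKM in gMDSC under CBPi and 2.33 to 4.33% in gMDSC with vehicle, with no overlap. In mMDSC it was 5.09 to 9.4% under CBPi and 4.41 to 5.86% with vehicle, with overlap. Against Bcl2l1, Bcl2l11 was 119 to 165% in gMDSC under CBPi and 37.5 to 60.8% in gMDSC with vehicle. In mMDSC it was 116 to 235% under CBPi and 46.8 to 87.1% with vehicle. The RPKM of Bcl2l11 thus exceeded that of Bcl2l1 in all 10 CBPi libraries and lay below it in all 10 vehicle libraries. In gMDSC Bcl2l11 averaged 114 RPKM under CBPi and 33.2 RPKM with vehicle, and Bcl2l1 averaged 82.4 and 75.3 RPKM. In mMDSC the means of both genes moved. Bcl2l11 averaged 30.3 RPKM under CBPi and 20.6 RPKM with vehicle there, and Bcl2l1 averaged 20.2 and 34 RPKM. Of these mMDSC changes only the fall of Bcl2l1 had passed the test. Pmaip1 was 37.8 to 61.6% of Mcl1 in mMDSC under CBPi and 26 to 35.7% in mMDSC with vehicle, against 13.6 to 17.8% and 5.4 to 16.9% in gMDSC under CBPi and with vehicle.

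**Figure D4:**
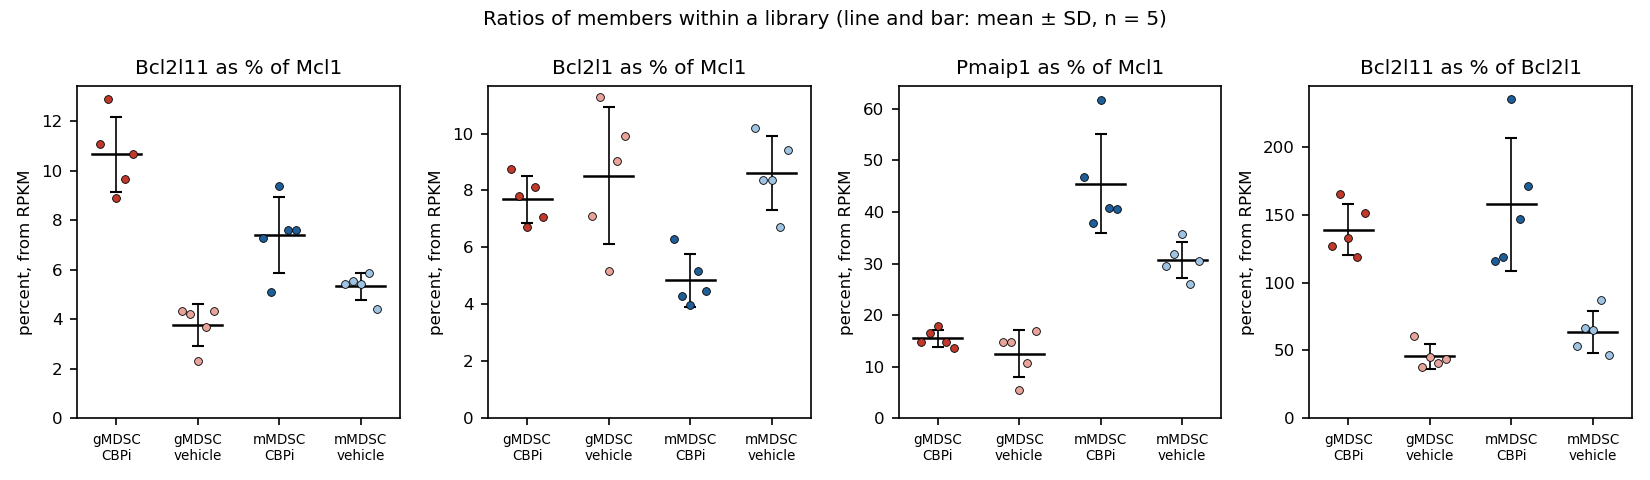
RPKM of one gene as a percent of another within each library (points), with the group mean (line) and SD (bar), n = 5. Bcl2l11 as a percent of Bcl2l1 is above 100 in the 10 CBPi libraries, at 116 to 235, and below 100 in the 10 vehicle libraries, at 37.5 to 87.1.

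Other genes of the pathway were read in 8 lists, described by their counts and medians beside all genes tested. Under CBPi 9.71% of all genes were called in gMDSC and 8.56% in mMDSC by edgeR. DESeq2 called 875 genes higher and 1062 lower in gMDSC, and 675 higher and 962 lower in mMDSC. No list was tested as a set. Among 8 tested genes of 14 further BCL2 family genes, 1 rose and 3 fell in gMDSC under CBPi, with a median log2 fold change of -0.81 against 0.00 over all genes, and none of 8 passed in mMDSC, where the median was -0.57 against 0.01. In mMDSC 2 of these genes were lower at an unadjusted p under 0.05 in edgeR, and DESeq2 called 1 lower. Bnip3, a mitochondrial BH3-like gene known as a mitophagy receptor, measured 19.8, 17.5, 9.4, 14.9 and 8.25 CPM in gMDSC CBPi libraries 6 to 10, against 2.35, 2.66, 1.31, 2.6 and 1.86 CPM in gMDSC vehicle libraries 1 to 5. Its log2 fold change was 2.70 ± 0.37 (adjusted p = 0.000783), the groups did not overlap, and its response was larger in gMDSC than in mMDSC by 2.29 ± 0.45 (adjusted p = 0.0186). That difference did not pass without gMDSC CBPi library 7 (adjusted p = 0.0534), in limma-voom (adjusted p = 0.0928) or with the replicate block. It passed without vehicle gMDSC libraries 3 and 5 (2.05, adjusted p = 0.0395). The 3 genes that fell were Bcl2a1a, Bcl2a1b and Bcl2a1d, copies of the anti-apoptotic gene A1, with log2 fold changes of -1.53, -1.63 and -1.74. In mMDSC the same copies gave -0.91, -0.63 and -1.13, with adjusted p of 0.111, 0.374 and 0.123 (edgeR). No gene of this list passed as lower in gMDSC in the test of the difference of responses. These 3 genes are near-identical copies, so the authors' counting could split reads among them and their separate values are uncertain. They make up 3 of the 8 tested genes, so the count and median of this list are not over independent genes. The gMDSC median lies between Bad, at -0.35, and Bcl2l15, at -1.27. Bcl2l15 averaged only 0.66 CPM in gMDSC under CBPi and 1.65 CPM in gMDSC with vehicle. The Bcl2a1d call (adjusted p = 0.0451) ended in 9 of the 10 leave-one-out fits, all but the one without gMDSC vehicle library 2, with an adjusted p of up to 0.117. It also ended without vehicle libraries 3 and 5 together (adjusted p = 0.101), in limma-voom (0.0605) and without the filter on low counts (0.0684).

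Downstream of the mitochondrion, 1 of 9 tested apoptosome and caspase genes rose in gMDSC, with a median log2 fold change of 0.30 over the list. Apaf1, the scaffold of the apoptosome, gave 1.22 ± 0.32 in gMDSC (adjusted p = 0.0295), with overlapping groups at 42.4 to 96.3 CPM under CBPi and 18.4 to 49.9 CPM with vehicle. That call ended without any one of gMDSC CBPi libraries 6, 7 and 8 or vehicle libraries 1 and 2, with an adjusted p of up to 0.0766. In mMDSC 1 of 9 passed, Htra2, a mitochondrial protease that antagonises inhibitors of apoptosis, which fell by 0.76 on the log2 scale (SE 0.10, adjusted p = 0.000596). Its log2 fold change in gMDSC was -0.59 ± 0.22 (adjusted p = 0.104, edgeR).

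Among the inhibitors of apoptosis proteins, Naip2 and Birc5 fell in both cell types, 2 of 8 tested in gMDSC and 2 of 9 in mMDSC. The median log2 fold change of this list was 0.10 in gMDSC and -0.13 in mMDSC. Naip2 averaged 49.8 ± 8.78 CPM in gMDSC under CBPi and 163 ± 35.6 CPM in gMDSC with vehicle, against 40.7 ± 2.38 CPM in mMDSC under CBPi and 74.5 ± 8.01 CPM in mMDSC with vehicle (SD, n = 5 each). Its adjusted p was 0.000166 in gMDSC and 0.000431 in mMDSC. Birc5 gave -1.31 ± 0.24 in gMDSC (adjusted p = 0.00493) and -1.59 ± 0.36 in mMDSC (adjusted p = 0.0149). Mouse NAIP2 is known as an inflammasome sensor of bacterial secretion systems and survivin, the Birc5 product, as a mitotic protein.

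Death receptor genes gave 1 call of 8 tested in gMDSC and none of 9 in mMDSC by edgeR, where 2 were higher and 2 lower at an unadjusted p under 0.05, and DESeq2 called 2 higher and 1 lower. The list medians were -0.09 in gMDSC and 0.10 in mMDSC. The death receptor Fas averaged 122 ± 12.3 CPM in gMDSC under CBPi and 229 ± 80.2 CPM in gMDSC with vehicle (SD, n = 5 each; log2 fold change -0.89 ± 0.22, adjusted p = 0.025). Its call ended without any one of gMDSC CBPi libraries 7, 8, 9 and 10 or vehicle library 1, with an adjusted p of up to 0.0625. In mMDSC Fas gave -0.61 ± 0.21 (adjusted p = 0.0937, edgeR). In the p53 list 2 of 13 tested genes rose in gMDSC and 1 of 13 fell in mMDSC, with medians of 0.14 and -0.12. Cdkn1a, the p21 cell cycle inhibitor, gave 1.12 ± 0.30 in gMDSC (adjusted p = 0.035), and its call ended without any one of CBPi libraries 6, 7 and 8 or vehicle libraries 1, 2, 4 and 5, with an adjusted p of up to 0.0936. Mdm2, the ubiquitin ligase of p53, gave 0.70 ± 0.18 in gMDSC (adjusted p = 0.0309), and its call ended without any one of CBPi libraries 6 and 7 or vehicle libraries 1, 2 and 5, with an adjusted p of up to 0.0784, and without vehicle libraries 3 and 5 together (0.0937). The gene that fell in mMDSC was Gtse1, at -1.41 ± 0.38 (adjusted p = 0.0368), a call lost in 7 of 10 leave-one-out fits, those without CBPi libraries 6, 7 and 9 or vehicle libraries 1, 2, 3 and 4, and in the fit of all 20 libraries (adjusted p = 0.251).

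For 6 genes acting on MCL1 protein turnover the median log2 fold change was 0.25 in gMDSC and 0 in mMDSC. None of the 6 passed in gMDSC by edgeR, 0 of them also at an unadjusted p under 0.05 and by DESeq2, and 1 of 6 passed in mMDSC. This was Btrc, an F-box subunit of a ubiquitin ligase, at 0.68 ± 0.18 (adjusted p = 0.033). The call ended without any one of mMDSC CBPi libraries 6, 8, 9 and 10 or vehicle libraries 1 and 2, with an adjusted p of up to 0.0864, and in the fit of all 20 libraries (0.0995). Of 7 tested transcriptional regulators of BH3-only genes, Jun, an AP-1 subunit, passed in both cell types, and the list medians were 0.37 in gMDSC and 0.45 in mMDSC. DESeq2 called 3 of the 7 higher in gMDSC and 5 in mMDSC. Jun measured 7020, 5790, 3060, 2750 and 2490 CPM in gMDSC CBPi libraries 6 to 10, against 1140, 1220, 1670, 1400 and 1450 CPM in gMDSC vehicle libraries 1 to 5 (1.63 ± 0.29, adjusted p = 0.00449). CBPi libraries 6 and 7 were the highest, as for Bcl2l11. In mMDSC Jun gave 0.98 ± 0.18 (adjusted p = 0.00433). Foxo3 and Foxo1, whose products bind the FOXO motif, were named for that motif and not for a call. They gave 1.06 ± 0.38 and 1.28 ± 0.48 in gMDSC (adjusted p = 0.102 and 0.108, edgeR). In mMDSC they gave 0.49 ± 0.36 and 0.45 ± 0.16 (adjusted p = 0.472 and 0.101, edgeR). Ddit3, Cebpb and Atf4, of the same list, gave 0.67, 0.45 and 0.42 in mMDSC (adjusted p = 0.0641, 0.072 and 0.0959, edgeR). Bbc3, which holds the same motif, gave -0.67 ± 0.42 in gMDSC. The part of the motif in these levels was not tested. None of 9 survival cytokine receptor genes passed in either cell type under CBPi by edgeR, with medians of -0.29 in gMDSC and -0.15 in mMDSC. At an unadjusted p under 0.05, 1 was higher and 1 lower in gMDSC and 1 lower in mMDSC, and DESeq2 called 1 lower in mMDSC. With vehicle 2 of 8 tested were higher in gMDSC: Csf3r, the G-CSF receptor and one of the neutrophil markers, by 4.08 ± 0.17, and Csf2rb, the shared beta chain of the GM-CSF receptor, by 1.04 ± 0.15 on the log2 scale.

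**Figure D5:**
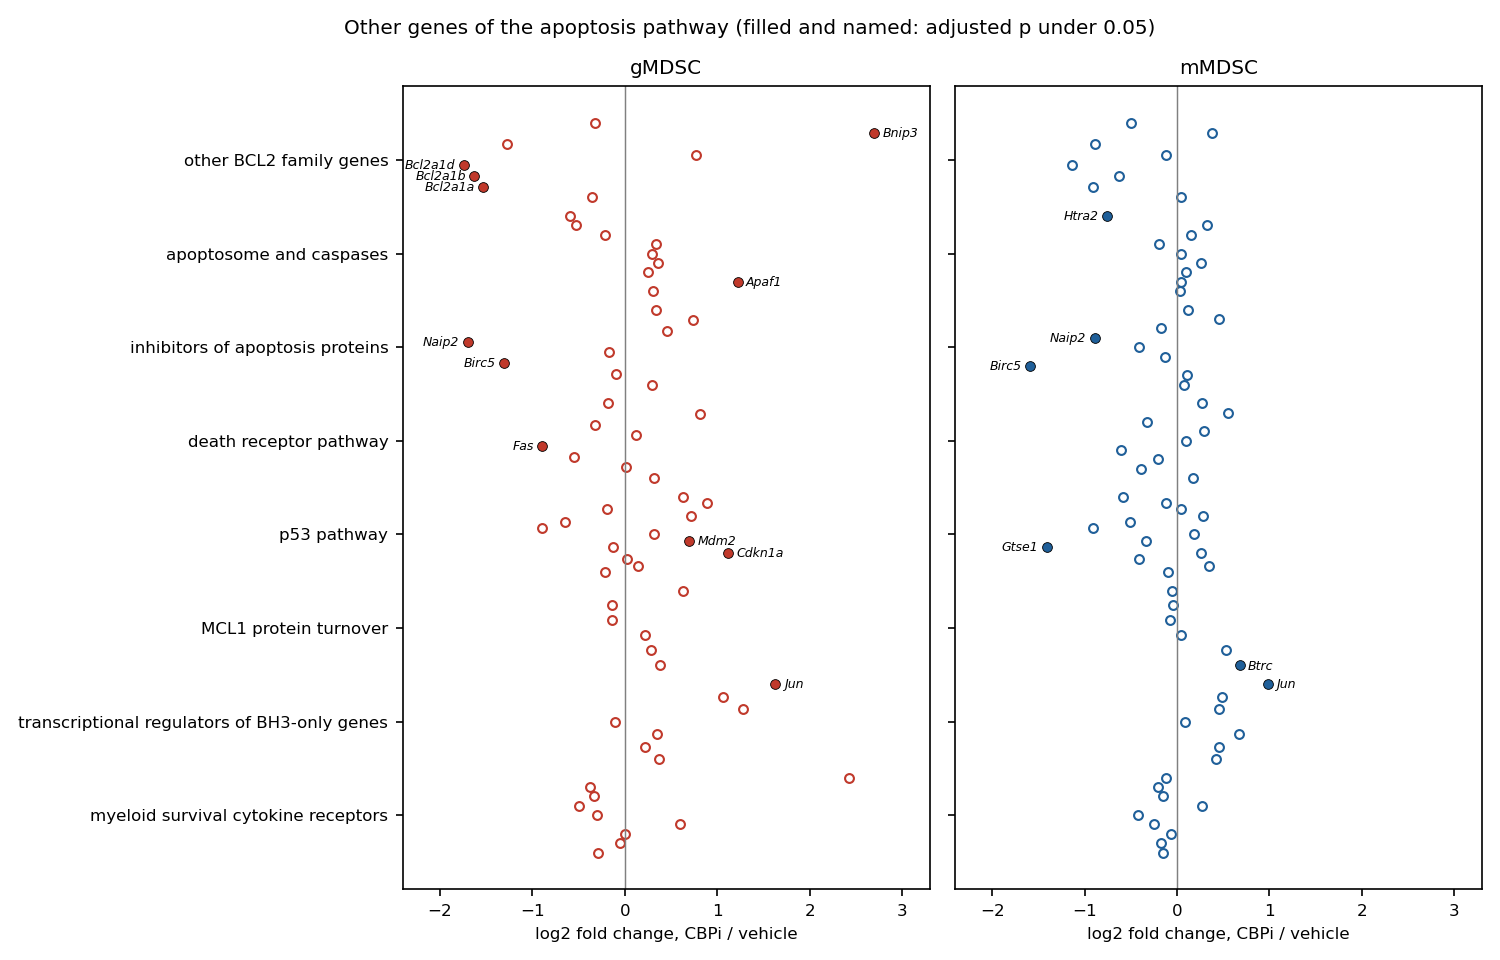
Log2 fold changes, CBPi over vehicle, of the tested genes of 8 pathway lists in gMDSC (left) and mMDSC (right); filled, named points have an adjusted p under 0.05. In gMDSC Bnip3 lies farthest to the right at 2.70 and the 3 Bcl2a1 copies at -1.53 to -1.74, and Jun, Naip2 and Birc5 are filled in both panels.

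The genes most like 4 of the members across the 20 libraries were named as a description, by Pearson's r of log2 CPM among 7798 genes with a mean of at least 10 CPM. The 20 points fall into 4 groups that differ in level, and within a group of 5 libraries r varied widely. Rabgef1 and Pfkfb3 were most like Bcl2l11, with r of 0.981 and 0.975 over all libraries and 0.201 to 0.984 and -0.797 to 0.962 within groups. Ptafr and Sbno2 were most like Bcl2l1, at 0.975 and 0.973, with 0.466 to 0.974 and 0.765 to 0.969 within groups. For Pmaip1 they were Mxi1 and Arnt, at 0.887 and 0.873, and for Bid they were Irak4 and Tm6sf1, at 0.887 and 0.841.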

How the data were processed

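Counts per gene, named as coding counts, were deposited by the authors with gene widths and RPKM for each of 20 libraries. Reads were aligned with GSNAP to GRCm38, per the submitters' processing notes. The RNA was poly-A-selected, per the labels' protocols. Counter, annotation and strand setting were not given in the sources used here. The authors' RPKM divides by a total of which the counts are 50.24 to 62.45%. Of 23090 gene IDs, 21647 matched a symbol in a RefSeq table of GRCm38.p6 and 1443 did not.

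Each comparison was fitted on its own 10 libraries with edgeR 4.0.16 in R 4.3.3 (TMM, filterByExpr with a minimum count of 10 and total of 15, quasi-likelihood F test), and the difference of responses on all 20 libraries. P-values were adjusted over all genes tested (Benjamini-Hochberg, threshold 0.05). SE is the log2 fold change over the root of F, and intervals cover 95%. Alternatives were DESeq2 1.42.0, limma 3.58.1 (voom), median-of-ratios factors, no filter, leave-one-out, a replicate block and all 20 libraries in one fit. Fits were tested on simulated data. The members and lists were chosen with earlier results of these data known. All members are named. Listed genes are named if called under CBPi, otherwise with vehicle, up to 4 per list by p. Outside this rule Foxo1 and Foxo3 are named for the FOXO motif, with Ddit3, Cebpb and Atf4 beside them. Likeness was read for the 4 members with the smallest adjusted p. Levels were compared between genes only in the deposited RPKM. Of the listed genes, Hbb-bs and Naip5 had counts identical to those of another gene in every library. A gene of the apoptosome and caspase list is not reported here and is left out of its counts.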

Additional observations from a re-analysis of the deposited data

Results flagged for a closer look

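In all 5 values were singled out for a closer look. In gMDSC with vehicle, library 3 held 264 CPM of Bax, while the next highest library held 131 CPM. The same library held 25.3 CPM of Bbc3, with the next at 9.03 CPM. It also had the highest macrophage and neutrophil sums of its group, 76000 and 52400 CPM, and the part of those in the 2 values was not tested. In mMDSC under CBPi, library 8 held 6.81 CPM of Bcl2, with the next at 5.19 CPM. In mMDSC with vehicle, library 3 held 3.57 CPM of Bak1, with the next at 2.23 CPM. In each case the gap was too large a part of the range of 5 libraries by Dixon's criterion of 0.71, which chance meets in about 1 of 20 groups, and 4 of the 40 gene and group pairs met it. The other value is the difference in Bcl2l11 response between the cell types, a log2 difference of 1.34 that passed the interaction test. It did not pass with the replicate block (adjusted p = 0.0941, edgeR).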

How the results depend on the processing

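Median-of-ratios factors and removal of the filter changed no count of called members, and no setting moved the median of all genes by more than 0.1 on the log2 scale. The rise of Bcl2l11 in gMDSC, the fall of Bcl2l1 in mMDSC and the 3 genes higher in gMDSC kept their calls in each alternative run. For CBPi in mMDSC, DESeq2 called 2 members higher and 2 lower, and 675 of all genes higher; the fit of all 20 libraries called 0 members and 168 genes higher. For CBPi in gMDSC, DESeq2 called 2 members higher and 1 lower (875 and 1062 of all genes), and the fit of all 20 libraries 2 and 1 (839 and 1350). With gMDSC vehicle libraries 3 and 5 left out, an alternative chosen after seeing the data, 1 member was lower, and Bcl2 (0.15), Bax (0.04) and Bak1 (0.02) changed sign. With vehicle, 1 member was lower in gMDSC by DESeq2, by limma-voom and with the replicate block, and 2 without libraries 3 and 5, where Bbc3 (-0.17) changed sign. For the difference of responses, DESeq2 called 2 members higher, 184 genes higher and 93 lower; limma-voom called 17 lower; without libraries 3 and 5 Pmaip1 (-0.04) and Bbc3 (0.19) changed sign. The cause of these shifts was not tested.

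As single libraries were left out, members called under CBPi in mMDSC ranged over 0 to 2 higher and 1 to 2 lower, with 221 to 448 genes higher, and Mcl1 over -0.14 to 0.05. In gMDSC members lower ranged over 0 to 1, genes higher over 229 to 658 and lower over 358 to 736, with the lowest counts without CBPi library 7; Bcl2 ranged over -0.51 to 0.01, Bcl2l1 over -0.04 to 0.26, Bax over -0.37 to 0.03 and Bak1 over -0.52 to 0.01. With vehicle, members lower in gMDSC ranged over 0 to 1 and genes lower over 676 to 1521, the highest without gMDSC library 3; Bbc3 ranged over -0.16 to 0.57 and Bmf over -0.62 to 0.02. Under CBPi between cell types Bbc3 ranged over -0.09 to 0.26 and Bmf over -1.05 to 0.06. For the difference of responses, genes higher ranged over 23 to 85 and lower over 10 to 32; Bax ranged over -0.03 to 0.37, Bak1 over -0.24 to 0.35, Pmaip1 over -0.03 to 0.22, Bbc3 over -0.56 to 0.17 and Bmf over -0.76 to 0.41.

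The labels give gMDSC and mMDSC of one treatment the same numbers. Same-numbered libraries correlated by -0.031 to 0.168 in their deviations from the group means with vehicle and 0.011 to 0.112 under CBPi. Of the 10 numbers, 3 matched best with their own. Such low correlations cannot settle whether same-numbered libraries share an animal. With the replicate block the difference of responses gave 0 members and 33 genes higher and 19 lower, Bcl2l11 gave 1.28 (adjusted p = 0.0941), Bnip3 gave 2.24 (adjusted p = 0.087) and Bmf 0.25 changed sign; Bax with vehicle gave -0.76 (adjusted p = 0.049). Low counts limit Bak1 and Bmf, whose intervals are the widest of the 10 genes.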
